A study of Mus musculus with 6 samples.

Results

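The genes described here are 33 genes of glycolysis and of the response to low oxygen, listed by symbol: 15 glycolytic enzymes, 2 transporters, 2 regulators of glycolytic flux, 11 other targets of the hypoxia-inducible factor (HIF) and 3 HIF subunits. They were read in small intestinal organoids of the mouse, epithelial structures that grow from crypts in culture. The array's annotation named a probe for 30 of the 33, out of 19057 genes with a probe of their own, and Hk2, Gpi1 and Eno1 were not analysed here. Organoids of the control group carried Villin-Cre alone, those of the Snai1 knockout group carried Villin-Cre with Snai1fl/fl, and both had 0.5 µM tamoxifen for 24 hours, with 3 arrays a group. The Villin promoter is active in gut epithelial cells, and the product of Snai1 is a transcriptional repressor of the Snail family. Since no label ties an array to a mouse or a culture of its own, p-values here reflect the variation among these 6 arrays, part of which may be technical.

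Glycolysis splits glucose into pyruvate in the cytosol, and lactate dehydrogenase can turn the pyruvate into lactate. In low oxygen the HIF alpha subunits escape hydroxylation by the prolyl hydroxylases of the Egln family, pair with Arnt and bind a short core sequence near their target genes. Many glycolytic enzymes are HIF targets, and so are genes for glucose import, acid handling, vessel growth and collagen hydroxylation. In the intestine oxygen falls from the crypt towards the lumen, and in culture it depends on the density and depth of the organoids.

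Values are on the deposited log2 scale, where the 6 arrays share one distribution with a median of 7.87, an upper quartile of 8.27 and a range from 7.71 to 14.78. Values near the median are compressed, so differences of dim genes are understated. Of the 30 genes, 20 had a mean above the upper quartile. The Snai1 probe read 7.87, 7.93 and 7.94 on control arrays 1 to 3 and 7.91, 7.86 and 7.96 on knockout arrays 1 to 3, too dim to check the labels. The epithelial marker Cdx2 read 12.65 to 12.75 on control and 12.75 to 12.81 on knockout arrays. Of 7 epithelial markers, 6 had a mean above the upper quartile, and Epcam, at 8.07 to 8.15, did not. Of 14 measured markers of fibroblasts, blood and endothelium, 0 had a mean above the upper quartile, and all their values lay between 7.77 and 7.99.

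None of the 30 genes passed the test between the genotypes. By limma at an adjusted p under 0.05 over all genes, 0 members were called, where 25 of 19057 genes (0.131%) were. By direction, 0 members were called higher and 0 lower in the knockout, against 0.0367% and 0.0945% of all genes. With the replicate number as a block 0 members were called, against 0.0472% of all genes. At an unadjusted p under 0.05 there was 1 member, P4ha1, against 7.22% of all genes, and with the block there were 7, against 10.9%. Above the upper quartile, the blocked fit had 6 of 20 members, against 1797 of 6969 such genes. The means of 21 members were higher in the knockout and those of 9 were lower, against 49.3% of all genes higher. The member differences ran from -0.20 for Vegfa to 0.30 for Pdk1, with a median of 0.07, where the median of all genes was -0.0006. Without knockout array 2, 13 of the 30 means were higher.

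**Figure D1:**
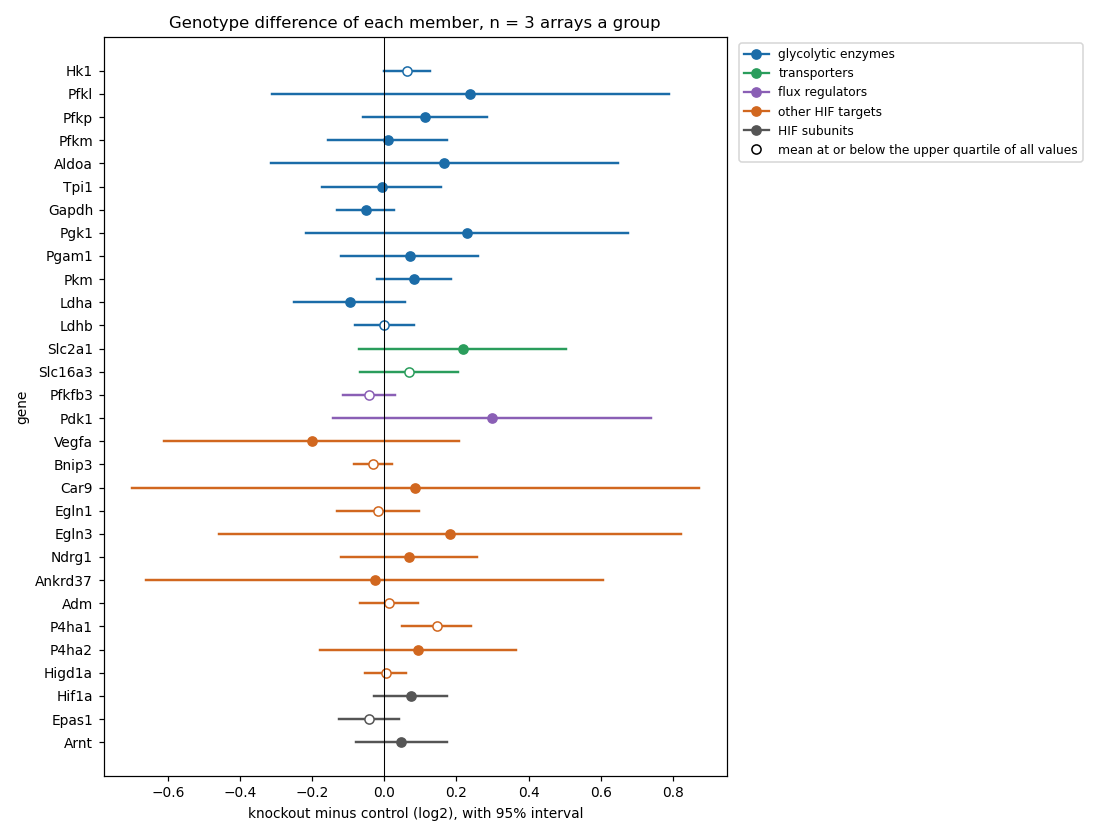
Difference between knockout and control for each of the 30 measured genes on the log2 scale (x axis), coloured by role, with limma's 95% interval over 3 arrays a group. P4ha1, at 0.14 with an interval from 0.05 to 0.24, is the single gene whose interval leaves out 0, and Car9, Egln3 and Ankrd37 have the widest intervals.

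Among the enzymes upstream of Gapdh, the 3 phosphofructokinase genes had positive differences of unequal size. Pfkl, the liver-type subunit of the enzyme that commits sugar to glycolysis, read 12.05, 12.40 and 12.14 on control arrays 1 to 3. On knockout arrays 1 to 3 it read 12.10, 12.93 and 12.28. Knockout array 2 stood highest by far and the groups overlapped, so the difference of 0.24 ± 0.22 (SE; interval -0.31 to 0.79; adjusted p = 0.94, limma) was about the size of its error. Without that array the Pfkl difference was -0.0072. A dimmer Pfkl probe differed by -0.02. Pfkp, the platelet type, read 11.34 ± 0.05 in control and 11.45 ± 0.13 in knockout (SD, n = 3), and its second bright probe gave a like difference, 0.15 beside 0.11. Pfkm, the muscle type, read 10.25 on each control array and 10.10, 10.34 and 10.34 on knockout arrays, a difference of 0.01, while a dimmer Pfkm probe differed by -0.10.

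Aldoa, the aldolase that splits fructose bisphosphate, read 12.57, 13.01 and 12.80 in control and 12.69, 13.35 and 12.84 in knockout. The array numbered 2 was the highest of each genotype, and the difference of 0.17 ± 0.20 (SE) lay within that spread and was -0.03 without knockout array 2. Hk1, a hexokinase that traps glucose in the cell, sat at 7.83 to 7.94 on all arrays, near the bottom of the scale, and differed by 0.06. Tpi1, which interconverts the triose phosphates, read 14.05 ± 0.11 in control and 14.04 ± 0.09 in knockout. Its other probes differed by 0.12 and -0.11, so the 3 probes disagreed in sign.

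From Gapdh onwards, Pgk1, which makes the first ATP of the pathway, read 12.75, 13.14 and 13.17 on control arrays and 12.95, 13.55 and 13.24 on knockout arrays. Array 1 was the lowest of both genotypes. The knockout exceeded its control in 3 of 3 pairs of the same replicate number, by 0.20, 0.41 and 0.08, and the difference was 0.23 ± 0.18 (SE; adjusted p = 0.92, limma). Gapdh, the dehydrogenase often used as a reference gene, held the narrowest range of the brighter enzymes in knockout arrays, 13.93 to 13.97, against 13.96 to 14.06 in control. Pgam1, a phosphoglycerate mutase, differed by 0.07 ± 0.08 (SE), and Pkm, the pyruvate kinase gene, by 0.08 ± 0.04, from 13.96 ± 0.03 to 14.04 ± 0.08 (SD, n = 3). A dimmer Pkm probe differed by -0.09, with the opposite sign, and without knockout array 2 the Pgam1 difference was -0.02. Several of these genes have processed copies in the mouse genome that a probe may also see. A probe named for Eno1b, a close copy of the enolase gene, read 9.03 ± 0.26 in control and 9.05 ± 0.32 in knockout.

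Ldha, whose product makes lactate from pyruvate, went the other way from most enzymes. It read 14.21, 14.44 and 14.28 on control arrays and 14.17, 14.24 and 14.23 on knockout arrays. Knockout was lower in 3 of 3 pairs, by -0.04, -0.20 and -0.05, but the groups overlapped and the difference of -0.10 ± 0.06 (SE; interval -0.25 to 0.06) did not pass (adjusted p = 0.87, limma). All its values lay near the top of the scale. Ldhb, the heart-type subunit, stayed at 7.92 to 8.01, where a difference could hardly be seen.

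Of the transporters, Slc2a1 (GLUT1), the glucose importer, read 10.42, 10.59 and 10.74 on control arrays and 10.63, 10.99 and 10.77 on knockout arrays. It was higher in knockout in 3 of 3 pairs, by 0.21, 0.40 and 0.04, with a difference of 0.22 ± 0.12 (SE; interval -0.07 to 0.50; adjusted p = 0.81, limma). Slc16a3 (MCT4), which exports lactate, was dim at 7.91 to 8.14 and differed by 0.07.

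Pdk1, the kinase that keeps pyruvate from conversion to acetyl-CoA by blocking pyruvate dehydrogenase, had the largest difference of the 30 genes. It read 10.02, 10.41 and 10.09 on control arrays and 10.17, 10.80 and 10.44 on knockout arrays. Each knockout array exceeded its same-numbered control, by 0.15, 0.38 and 0.36, yet the highest control array exceeded the lowest knockout array. The difference was 0.30 ± 0.18 (SE; interval -0.14 to 0.74; adjusted p = 0.85, limma) without the block, and with it the error fell to 0.05 (adjusted p = 0.18). A dimmer Pdk1 probe, at 7.84 to 8.13, differed by 0.03. Pfkfb3, which makes the fructose bisphosphate that activates phosphofructokinase, was at 7.84 to 7.95 and differed by -0.04.

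Among the other HIF targets, Vegfa, the vessel growth factor, had the lowest difference. It read 9.50, 9.96 and 9.61 on control arrays and 9.33, 9.78 and 9.35 on knockout arrays. The knockout was lower in 3 of 3 pairs by near-equal amounts, -0.16, -0.18 and -0.26. The spread between replicate numbers was larger than that, so the unblocked difference was -0.20 ± 0.17 (SE; adjusted p = 0.92, limma), and the blocked one -0.20 ± 0.03 (adjusted p = 0.15). Both dimmer Vegfa probes differed by -0.03. Pdk1 and Vegfa, both textbook HIF targets, thus held opposite signs in all 3 pairs.

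P4ha1 was the single member whose groups did not overlap, against 12% of all genes (1 of 30 members). It encodes a catalytic subunit of the prolyl hydroxylase that modifies collagen, and read 8.11, 8.16 and 8.17 on control and 8.23, 8.29 and 8.36 on knockout arrays. The difference was 0.14 ± 0.04 (SE; adjusted p = 0.44, limma), 0.12, 0.13 and 0.18 in the pairs, at a level just under the upper quartile. On a dimmer P4ha1 probe the groups overlapped and the difference was 0.04. P4ha2, the other catalytic subunit, had pair differences of 0.04, 0.14 and 0.10 and a difference over all arrays of 0.09 ± 0.11 (SE), which was -0.0076 without knockout array 2.

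Car9, a membrane carbonic anhydrase that handles acid, read 10.84, 11.47 and 11.43 on control and 10.72, 11.86 and 11.40 on knockout arrays. Its control arrays spanned 0.63 and its knockout arrays 1.14, and the difference between genotypes was 0.09 ± 0.32 (SE; interval -0.70 to 0.87). Egln3, a prolyl hydroxylase that both senses oxygen and is induced by HIF, read 9.97, 10.67 and 10.44 on control and 10.16, 10.99 and 10.47 on knockout arrays, a difference of 0.18 ± 0.26 (SE). Without knockout array 2 the difference was -0.04 for Egln3 and -0.18 for Car9, and without control array 1 it was -0.01 and -0.12, so single arrays set both signs. Ankrd37, an ankyrin-repeat gene induced in hypoxia, read 9.57, 10.36 and 9.83 on control and 9.68, 10.32 and 9.68 on knockout arrays. Its difference of -0.03 ± 0.26 (SE) was small beside a range of 0.79 among control arrays alone, and ran from -0.24 to 0.19 on leaving out 1 array. The interval ran from -0.46 to 0.82 for Egln3 and from -0.66 to 0.61 for Ankrd37, so sizeable differences of either sign were not excluded for these 3 genes.

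Ndrg1, a stress-response gene, read 11.42 ± 0.10 in control and 11.49 ± 0.12 in knockout, and both its bright probes differed by under 0.10. Egln1, the main oxygen-sensing hydroxylase, was at 8.11 to 8.25 and differed by -0.02, while its other probes differed by 0.09 and 0.02. Bnip3, a mitophagy receptor, lay at 7.79 to 7.85, and Higd1a, a mitochondrial hypoxia gene, at 7.78 to 7.84. Adm, the vasodilator peptide adrenomedullin, lay at 7.84 to 7.95. At these levels a loss or a modest gain was not detectable.

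None of the HIF subunits passed the test either. Hif1a, the widely expressed alpha subunit, read 8.42, 8.34 and 8.47 on control and 8.46, 8.46 and 8.53 on knockout arrays, a difference of 0.07 ± 0.04 (SE; interval -0.03 to 0.17). Epas1, which encodes HIF-2 alpha, lay at 7.87 to 7.97. Arnt, the shared beta subunit, read 9.44 ± 0.03 and 9.49 ± 0.10 (SD, n = 3), and a second bright probe of it differed by -0.12, in the opposite direction. HIF activity is set mainly by protein stability, which these arrays do not measure.

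**Figure D2:**
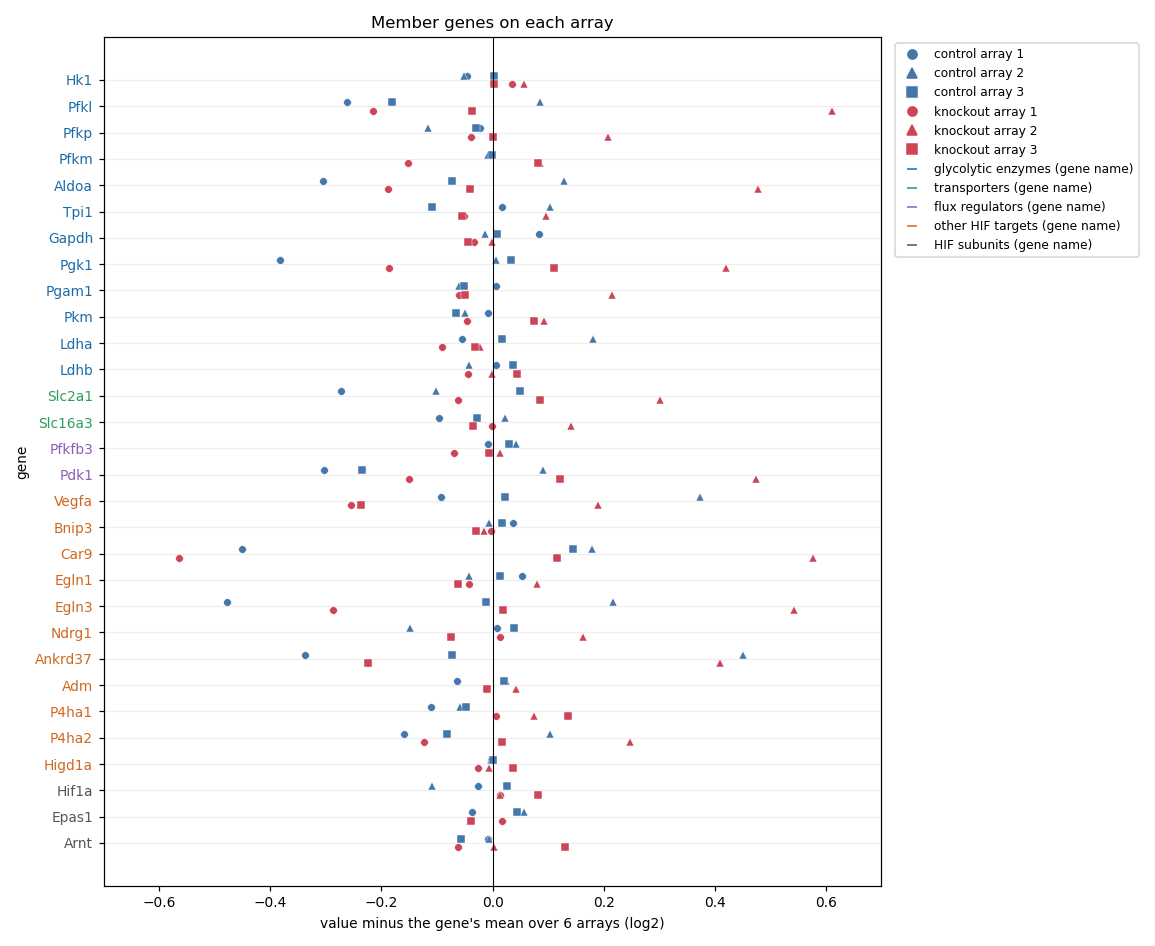
Value of each member on each of the 6 arrays minus that gene's mean (x axis, log2), with control in blue, knockout in red and the marker shape giving the replicate number. The triangles (array 2) of Pfkl, Aldoa, Pdk1, Vegfa, Car9, Egln3 and Ankrd37 lie to the right in both colours.

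In 5 of the 6 HIF targets above the upper quartile, all but Ndrg1, the gap between array 2 and the others was larger than the genotype difference. In 13 of the 30 genes the array numbered 2 was the highest of the 3 in both genotypes (43.3%), against 12.8% of all genes. Among genes above the upper quartile it was 10 of 20 members against 15.1%. They were Pfkl, Aldoa, Tpi1, Ldha, Slc16a3, Pfkfb3, Pdk1, Vegfa, Car9, Egln3, Ankrd37, Adm and P4ha2. This count was chosen after the values were seen and carries no test. The arrays numbered 2 exceeded the mean of the other arrays of their genotype by 0.65 for Ankrd37, 0.57 for Egln3, 0.57 for Car9, 0.52 for Pfkl and 0.42 for both Pdk1 and Vegfa. Their genotype differences ran from -0.20 to 0.30. All 3 Car9 probes, all 3 Vegfa probes, both bright P4ha2 probes and both Pdk1 probes had array 2 highest in each genotype. The other Tpi1 probes, though above the upper quartile, did not. Nor did the further probes of Pfkl, Egln3, Slc16a3 and P4ha2, which were dim.

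Limma's F test of the replicate number, run over all genes after the values were seen, called 0 of 19057 genes (0%) and so 0 members. At an unadjusted p under 0.05 it had 10 members of 30, where it had 12.3% of all genes, and 10 of the 20 members above the upper quartile, where it had 30.4% of such genes. Vegfa had the largest F of the members at 93.4 (adjusted p = 0.16), followed by Ankrd37 at 59.9 and Egln3 at 50.8. The labels do not say what arrays of one number share.

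**Figure D3:**
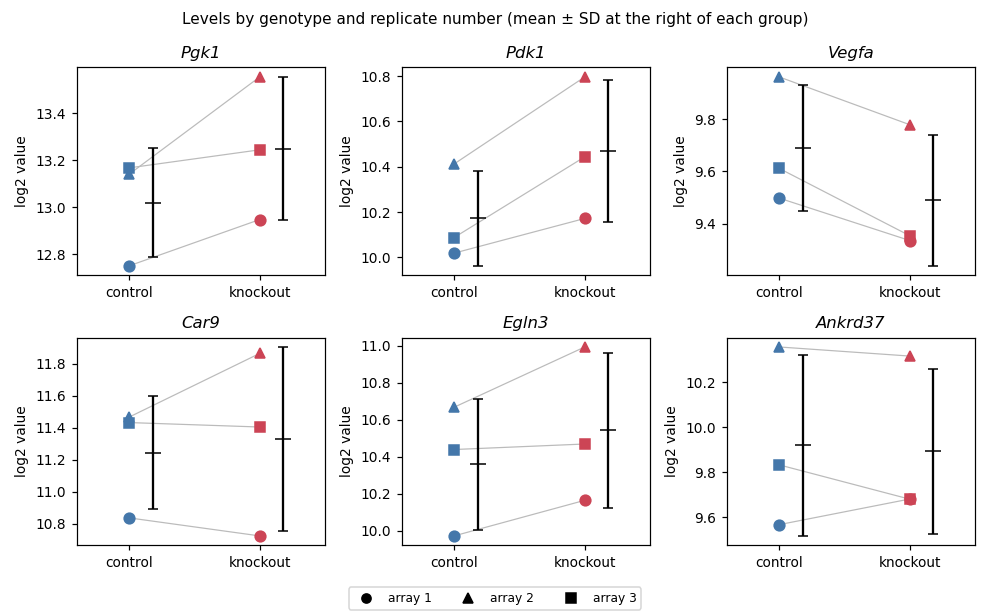
Log2 values of 6 members on the control and knockout arrays, with grey lines joining arrays of one replicate number and the mean ± SD (n = 3) beside each group. Array 2 is highest in both genotypes for every panel except Pgk1, where control array 3 is the highest control. The lines of Vegfa all slope down and those of Pgk1, Pdk1 and Egln3 all slope up.

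Cell type markers also followed the replicate number, in differing ways. All 5 measured goblet markers were highest on array 3 of both genotypes, where 2335 of 19057 genes were. The 5 stem cell markers averaged 9.24, 9.46 and 9.18 on control arrays 1 to 3 and 9.40, 9.66 and 9.54 on knockout arrays. The 9 enterocyte markers averaged 11.14, 10.87 and 11.29 on control and 10.95, 10.93 and 11.18 on knockout arrays. The arrays numbered 2 were thus the lowest for them in each genotype, but by little in the knockout. Lgr5, the stem cell receptor, was highest on array 2 of both genotypes (9.10 and 9.56). Olfm4, another stem cell marker, was highest on control array 2 and knockout array 3. Krt20, a keratin of mature enterocytes, was lowest on control array 2 (11.57), while knockout arrays 1 and 2 read 11.70 and 11.69. Single enterocyte markers varied, and Alpi and Slc5a1 were lowest on array 1 in the knockout. By genotype, 5 of 5 stem cell markers had a higher mean in the knockout and 8 of 9 enterocyte markers a lower one. Of all genes 49.3% were higher, and no marker passed the test. The largest differences were 0.45 ± 0.13 (SE) for Olfm4 and 0.42 ± 0.18 for Lgr5 among stem cell markers. Among enterocyte markers the largest was -0.28 ± 0.11 for Apoa1. Others were tiny, 0.01 for Smoc2 and -0.0007 for Sis, and Fabp1 and Fabp2 lay near the bottom of the scale. Means were higher in the knockout for 1 of 3 Paneth, 3 of 5 goblet and 1 of 5 enteroendocrine markers. Their part in the values of the glycolysis and HIF genes was not tested. In such bulk samples a change in the share of cells and a change in RNA per cell cannot be told apart.

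The glycolytic enzymes and the other HIF targets were compared by their medians. Across the 12 measured enzymes the median difference between knockout and control was 0.07, with 9 means higher and 3 lower. Across the 11 other HIF targets it was 0.01, with 7 higher and 4 lower. The enzymes therefore exceeded the other targets by 0.05. A different quantity, the gap on each array between the group medians of values relative to each gene's mean, had an SD of 0.05 between replicates. That SD does not measure the error of the contrast of 0.05, which was taken between medians of gene differences. The sign of this contrast was not kept across pairs, at -0.04, 0.0025 and 0.06 in pairs 1 to 3. Over members above the upper quartile alone, 10 enzymes and 6 other targets, the medians were 0.08 in both groups.

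The groups also differed in how they varied over the arrays, as a description with no test. Relative to each gene's mean, the 6 brighter HIF targets had medians of -0.25, 0.20 and 0.0050 on control arrays 1 to 3 and -0.24, 0.33 and -0.03 on knockout arrays. The 10 brighter enzymes had medians of -0.02, -0.0010 and -0.04 on control arrays and -0.08, 0.15 and -0.03 on knockout arrays. The arrays numbered 2 exceeded the others by a median of 0.49 in these HIF targets and 0.12 in these enzymes, where the median of all genes above the upper quartile was -0.0028. Within the enzymes, this gap was 0.32 to 0.52 for Pfkl, Aldoa and Pgk1, and -0.01, 0.03 and 0.06 for Gapdh, Pkm and Pfkm. The groups also differ in level. Tpi1, Gapdh, Pkm and Ldha had means of 13.97 to 14.26, near the top of the scale, and these HIF targets read 8.55 to 11.86. Whether level bears on the gap was not tested.

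**Figure D4:**
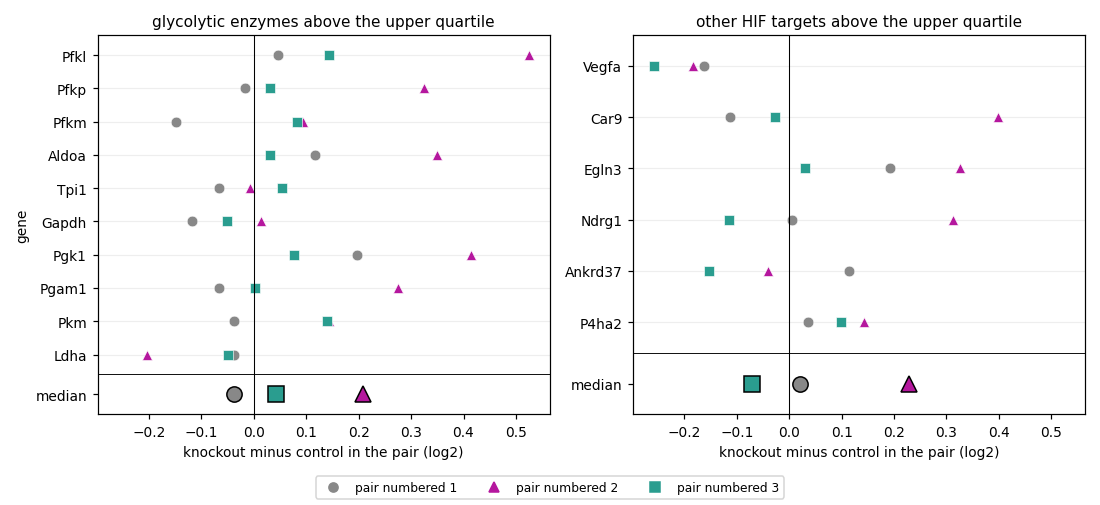
Knockout minus control within each pair of arrays of one replicate number (x axis, log2) for the 10 glycolytic enzymes and the 6 other HIF targets above the upper quartile, with the median of each pair in the bottom row. The pair numbered 2 has the largest medians, 0.21 for the enzymes and 0.23 for the HIF targets, while pairs 1 and 3 lie between -0.07 and 0.04.

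The pair numbered 2 had the highest median difference. The median over all 30 members was -0.0053 in pair 1, 0.12 in pair 2 and 0.02 in pair 3, and 9 members were higher in 3 of 3 pairs against 15.7% of all genes. These were Pfkl, Aldoa, Pgk1, Slc2a1, Pdk1, Egln3, P4ha1, P4ha2 and Hif1a. Ldha, Pfkfb3, Vegfa and Bnip3 were lower in 3 of 3 pairs (4 of 30, against 15.2%). With both arrays numbered 2 left out, a choice made after the values were seen, the median difference of the enzymes was 0.0003 and that of the other HIF targets -0.02.

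Isozymes of one step had unequal differences, which were not tested against each other. Over pairs 1 to 3 the differences were 0.05, 0.53 and 0.14 for Pfkl, -0.02, 0.32 and 0.03 for Pfkp, and -0.15, 0.09 and 0.08 for Pfkm, so Pfkl was the highest of them in each pair while the order of Pfkp and Pfkm varied. Ldha differed by -0.04, -0.20 and -0.05, and Ldhb, which is dim, by -0.05, 0.04 and 0.0081. Egln1 differed by -0.10, 0.12 and -0.08 and Egln3 by 0.19, 0.33 and 0.03, with the sign of each resting on the probe or array named above. Over all arrays P4ha1 differed by 0.14 and P4ha2 by 0.09, and Hif1a by 0.07 and Epas1 by -0.04.

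The promoters of 5 members that followed the replicate number (Pgk1 by a low array 1) are shown because they carry the core that HIF binds, ACGTG or GCGTG. Being chosen for the core, they do not show how often it goes with that pattern. Tpi1 and the first of 2 Vegfa windows hold neither core. Pdk1 has 2 windows, and the second, not shown, holds neither. Each run covers 250 bases before and 50 after a RefSeq transcript start in GRCm38.p6, on the gene's strand, with matches on either strand in capitals (a match on the other strand reads CACGT or CACGC):
Pgk1: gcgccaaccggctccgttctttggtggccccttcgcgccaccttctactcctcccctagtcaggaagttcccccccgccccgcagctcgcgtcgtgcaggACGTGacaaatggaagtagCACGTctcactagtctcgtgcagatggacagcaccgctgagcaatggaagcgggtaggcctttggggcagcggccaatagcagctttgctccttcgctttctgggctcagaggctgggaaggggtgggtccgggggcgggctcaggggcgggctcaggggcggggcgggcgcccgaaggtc
Pdk1: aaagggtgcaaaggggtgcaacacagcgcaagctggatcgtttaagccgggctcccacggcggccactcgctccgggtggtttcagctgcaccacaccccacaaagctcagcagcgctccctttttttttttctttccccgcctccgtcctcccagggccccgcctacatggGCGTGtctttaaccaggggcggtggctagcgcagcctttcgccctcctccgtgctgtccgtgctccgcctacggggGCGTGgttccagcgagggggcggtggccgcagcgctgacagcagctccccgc
Car9: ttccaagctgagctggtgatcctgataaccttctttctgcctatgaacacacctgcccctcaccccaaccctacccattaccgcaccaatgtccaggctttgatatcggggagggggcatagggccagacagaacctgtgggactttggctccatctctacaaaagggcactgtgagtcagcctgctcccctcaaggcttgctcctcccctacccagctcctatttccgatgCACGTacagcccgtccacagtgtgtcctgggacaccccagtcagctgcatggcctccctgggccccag
Egln3: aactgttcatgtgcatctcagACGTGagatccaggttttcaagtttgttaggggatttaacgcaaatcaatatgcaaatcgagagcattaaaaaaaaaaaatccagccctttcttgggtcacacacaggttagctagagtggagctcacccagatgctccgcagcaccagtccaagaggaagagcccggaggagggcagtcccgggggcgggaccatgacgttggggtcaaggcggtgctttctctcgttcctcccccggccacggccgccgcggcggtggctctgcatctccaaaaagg
Ankrd37: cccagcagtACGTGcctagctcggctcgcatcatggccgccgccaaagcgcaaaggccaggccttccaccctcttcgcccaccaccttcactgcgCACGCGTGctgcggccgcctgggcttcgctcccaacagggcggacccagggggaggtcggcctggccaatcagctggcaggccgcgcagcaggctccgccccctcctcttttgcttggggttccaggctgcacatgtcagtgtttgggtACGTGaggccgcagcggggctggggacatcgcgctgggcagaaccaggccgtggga
In Pgk1 (chrX:106186850-106187149, plus strand) ACGTG begins 150 bases before the start and its reverse complement 131 bases before. In Pdk1 (chr2:71872974-71873273, plus strand) GCGTG begins 78 and 2 bases before the start. In Car9 (chr4:43506776-43507075, plus strand) the match begins 18 bases before the start, and in Egln3 (chr12:54203825-54204124, minus strand) 229 bases before. Ankrd37 (chr8:45999801-46000100, minus strand) has matches that begin 241, 155 and 6 bases before the start, the middle run holding GCGTG on both strands, which overlap.

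Promoter windows were found for 31 of the 33 genes, 44 windows in all. ACGTG occurred on either strand in 25 of the 44 (56.8%), against 19.6% of all 32851 windows of this length, and GCGTG also in 25 (56.8%), against 32.4%. By role, ACGTG was in 9 of 11 windows of the other HIF targets and in 11 of 25 windows of the glycolytic enzymes, some of which are alternative starts of 1 gene. Gapdh and Higd1a, whose values differed little between arrays, have both cores in their windows. Higd1a lay near the bottom of the scale, where a change could hardly be seen, and Gapdh near its top. CAGGTG, which was also searched, is a form of the E-box that Snail proteins bind. It was in 9 of the 44 windows (20.5%), against 20.2% of all, among them Car9, Bnip3, Hif1a and the second Vegfa window. By role it was in 4 of 11 windows of the other HIF targets and 4 of 25 of the enzymes. A match is a description of these letters, not of a bound site.

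The rest of the pathway was read from a list of 100 genes, of which 92 were measured. Of these, 0 passed limma's test over all genes, against 0.131% of all genes. The means of 47 were higher and those of 45 lower, against 49.3% of all genes higher. At an unadjusted p under 0.05 limma had 7 of the 92, against 7.22% of all genes. Bhlhe40, a HIF-induced transcriptional repressor, had the largest difference, from 11.18, 11.28 and 11.34 on control to 10.58, 10.80 and 10.85 on knockout arrays. Its groups did not overlap, and it was lower in 3 of 3 pairs, with a difference of -0.52 ± 0.08 (SE; adjusted p = 0.17, limma). It passed in 2 of the alternative fits, with a trended robust variance (adjusted p = 0.008) and among genes above the upper quartile (adjusted p = 0.021). The histone demethylase genes Kdm3a and Kdm4b, also HIF targets, differed by 0.23 ± 0.06 and 0.28 ± 0.08 (SE), and Insig2, a regulator of sterol synthesis, by 0.30 ± 0.10, with adjusted p of 0.39, 0.48 and 0.58 (limma). Of 30 further HIF targets measured, 12 were highest on the arrays numbered 2 of both genotypes (40%), against 12.8% of all genes. Among them were Ak4, Ddit4 and Stc2, named after their values were seen, by 0.48, 0.39 and 0.46.

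Among 13 regulators of HIF, the 4 of lowest p were the coactivator inhibitor Cited2 at 0.15 ± 0.05 (SE), the coactivator Ep300 at 0.25 ± 0.13, Hif1an, which hydroxylates the HIF activation domain, at 0.11 ± 0.06, and Rbx1, a ubiquitin ligase subunit, at -0.12 ± 0.08. In the wider glucose list, Gpd1, which links glycolysis to glycerol, differed by -0.12 ± 0.04 (SE), and Adpgk, an ADP-dependent glucokinase, by 0.14 ± 0.05. Pgam2 and Tigar were near the bottom of the scale and differed by -0.04 and -0.05. Around pyruvate dehydrogenase, Pdha1, its catalytic subunit, differed by 0.10, Pdk3 by 0.16, Pdp2 by 0.06 and Pdhx by -0.03. In the pentose phosphate pathway, Rpia, H6pd, Taldo1 and Pgd differed by -0.05, -0.08, 0.02 and -0.02. Adjusted p with limma was 0.52 or more for each gene of these 4 lists.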

How the data were processed

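Biotin-labelled cRNA from 6 organoid samples was read on Illumina arrays, per the labels' protocols. The authors deposited a table of log2 values for 45281 probes. How background was treated, and the log base, are not given in the sources at hand, and base 2 was assumed. Once sorted, the columns matched to within 0.00187, which is what quantile normalization leaves, and no further normalization was applied. The platform annotation gave 1 gene to 34885 probes, several to 18 and none to 10378, and 34807 matched the GRCm38.p6 table by gene number. Each gene was represented by its probe of highest mean, with no filter.

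Groups were compared with limma 3.58.1 in R 4.3.3 (lmFit, eBayes, Benjamini-Hochberg adjustment over 19057 genes), after a test on simulated data. The members and lists were chosen with earlier results of these data known, so lists carry counts and medians and no test. All measured members are named, and the 4 genes of lowest p in each pathway list. The number of arrays limits the precision. Arrays of one replicate number deviated together (r = 0.35, 0.33 and 0.46 for numbers 1 to 3), so the numbers were taken to pair the samples, in an alternative fit with the number as a block. Other alternatives covered normalization, dim probes, several probes per gene, variance models, array weights and leaving out arrays.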

Additional observations from a re-analysis of the deposited data

How the results depend on the processing

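Of the 30 members, 0 passed in any of the 16 alternatives (lowest adjusted p 0.15, with the replicate block). With the replicate block 9 genes of 19057 passed in place of 25, and the block changed no other call. The count over all genes was 41 among genes above the upper quartile, where 1 pathway gene, Bhlhe40, passed, and 71 with trended robust variances, where again 1 passed, Bhlhe40. On leaving out 1 array it ran from 4 to 23 (6, 15 and 9 without control arrays 1 to 3, and 23, 13 and 4 without knockout arrays 1 to 3), and it was 1 without both arrays numbered 2. The enzyme median, 0.07, ran from -0.0134 (without knockout array 2) to 0.10 on leaving out 1 array, and was 0.0003 without both arrays numbered 2. That of the other HIF targets, 0.01, ran from -0.03 to 0.08. Their contrast, 0.05, ran from 0.02 to 0.07 on leaving out 1 array, and was -0.0009 among genes above the upper quartile, -0.0015 above the median and -0.0106 with probes averaged. The cause of these shifts was not tested. Of 468 member values over the alternatives, 10 moved by more than 1 SD between replicates and 43 had the other sign, none of a called gene, and 14 members kept their sign throughout.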
